A study of Mus musculus with 24 samples.

Results

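The genes that encode the replacement histone H3.3 and the chaperones that carry it were followed in whole testes of *Atad2* knockout (KO) and wild-type (WT) mice. The set held 10 genes, chosen by symbol from the 24456 genes listed in each count table, and all 10 were among the 17170 genes tested. They were the H3.3 genes *H3f3a* and *H3f3b*, the HIRA complex genes *Hira*, *Ubn1*, *Ubn2* and *Cabin1*, the ASF1 genes *Asf1a* and *Asf1b*, and the pair *Daxx* and *Atrx*. Testes were taken on days 20, 22, 24 and 26 after birth, with 4 WT and 4 KO libraries at each of days 20 and 22 and 2 of each genotype at each of days 24 and 26. KO males were homozygous for an allele in which a lacZ cassette is spliced to *Atad2* and exon 12 has been removed by Cre under the CMV promoter, so that the loss is present in every cell and not in germ cells alone. No animal was treated. Library names such as WT_d20_2 end in the replicate number.

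H3.3 is the H3 variant that is placed on chromatin outside DNA replication. The HIRA complex, made of HIRA, a ubinuclein (UBN1 or UBN2) and CABIN1, deposits it mainly at genes and regulatory elements, ASF1 proteins hand H3-H4 dimers to the depositing chaperones, and DAXX with the remodeller ATRX deposits it at heterochromatin and telomeres. In male germ cells H3.3 is loaded on the sex chromosomes during meiosis, and H3.3 nucleosomes are later replaced as protamines take over in elongating spermatids. The bromodomain ATPase ATAD2 acts on histone chaperones at chromatin, and the study examined HIRA, H3.3 and transcription in its absence. The RNA counts address whether the transcripts of this pathway differed.

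*H3f3a* and *H3f3b* encode 1 protein from unlike genes. Each coding region has 408 bases, 95 of which differ, an identity of 76.7%. Of these differences 81 fall at the third base of a codon, and all 83 differing codons of 136 are synonymous. The longest run of identical bases was 23, shorter than a 75-base read, so the coding regions of both genes can be told apart. The first 120 coding bases of each are printed from the GENCODE M21 transcript of each gene with the longest coding region, to show how the 2 sources of the protein differ. Capitals mark the 24 bases that differ in this stretch.
H3f3a: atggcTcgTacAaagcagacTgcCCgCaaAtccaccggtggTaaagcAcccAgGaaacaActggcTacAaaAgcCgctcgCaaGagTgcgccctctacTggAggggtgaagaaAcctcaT
H3f3b: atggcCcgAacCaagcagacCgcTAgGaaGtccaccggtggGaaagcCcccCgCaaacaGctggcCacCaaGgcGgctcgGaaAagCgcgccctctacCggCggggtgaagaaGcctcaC
The larger limit on counting comes from copies elsewhere. Of the 75-base windows of the *H3f3a* transcript, 262 of 650 (40.3%) also occur in annotated transcripts of 27 other genes, among them the pseudogenes *H3f3a-ps1* and *H3f3a-ps2*. For *H3f3b* the share was 5.42%, from 3 other genes. Since pairs with several alignments were discarded, *H3f3a* may be under-counted relative to *H3f3b*, and the split between them is uncertain. In the *Hira* transcript 63.6% of windows were shared with *Gm28539* alone, a gene model that overlaps *Hira* on the same strand and was not among the genes counted. In *Ubn2* the share was 1.58%, and no window was shared in the transcripts of the other 6 members. The coding regions of *Asf1a* (612 bases) and *Asf1b* (606 bases) were identical at 70.2% of aligned positions, with a longest run of 20.

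On mm10 *H3f3a* lies at chr1:180800832-180813943 on the minus strand and *H3f3b* at chr11:116021912-116027962 on the minus strand. *Hira* (chr16:18877037-18970309) and *Ubn1* (chr16:5050057-5086289) share a chromosome and the plus strand, *Ubn2* lies at chr6:38433950-38524825 on the plus strand, where it contains *Mir7670*, and *Cabin1* at chr10:75646112-75764341 on the minus strand. *Asf1a* (chr10:53596757-53609225) and *Asf1b* (chr8:83955507-83970197) are on the plus strand. *Asf1a* overlaps *Mcm9* on the other strand, which stranded counting separates. *Daxx* lies at chr17:33909414-33915590 on the plus strand. *Atrx*, at chrX:105797615-105929403 on the minus strand, is the only member on a sex chromosome.

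Each member had at least 210 counts in every library, out of totals between 10709667 and 19491935. *Atad2* itself was lower in KO at each day with no overlap between genotypes (at most 53.0 CPM in KO and at least 76.1 CPM in WT over all days, where CPM are counts scaled to a common library size), and its mean log2 fold change over the 4 days was -1.37 (SE 0.112, adjusted p = 1.23e-07 in edgeR). The labels give the tissue as testis, though the extraction text mentions a purified spermatogenic fraction. Germ cell, Sertoli, Leydig and peritubular markers were present in every library, and the 4 globin genes on the blood list were listed at 0 in every library. The summed level of the 2 tested epididymis markers, of 4 on the list, ran from 0 to 684.6 CPM across libraries. In day order its highest value was 275.9, 529.8, 684.6 and 545 CPM in WT and 50.39, 127.7, 156.7 and 128.2 CPM in KO. Every group also held a library at 0.1738 CPM or less. WT_d20_2 stood apart. It had the lowest total, 13.7% of its pairs aligned to several places (4.74% to 9.16% elsewhere), and mitochondrial ribosomal RNA took 3.26% of its counts (0.170% to 1.06% elsewhere). Of the 10 members, 4 were higher in it than in each of the other 23 libraries (*H3f3a*, *Ubn2*, *Asf1a* and *Atrx*), 4 were lower (*Ubn1*, *Cabin1*, *Asf1b* and *Daxx*) and 2 lay within their range (*H3f3b* and *Hira*).

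The members spanned a wide range of levels. Per kilobase of exon, *H3f3b* was the highest at 194 ± 25.2 CPM per kb (SD, n = 24 libraries of all groups), followed by *H3f3a* at 44.9 ± 5.02. *Daxx* (27.2 ± 6.34) and *Asf1b* (24.6 ± 3.41) came next, and then the ubinuclein genes *Ubn1* (16.4 ± 1.96) and *Ubn2* (13.1 ± 1.26). *Asf1a* (8.73 ± 1.35), *Cabin1* (7.82 ± 1.05), *Atrx* (6.73 ± 2.18) and *Hira* (4.06 ± 0.614) were the lowest. Within single libraries this order was not equally firm. *Daxx* exceeded *Asf1b* in 15 of 24 libraries and *Asf1a* exceeded *Cabin1* in 15 of 24, so these neighbours were not separated, whereas *H3f3b* exceeded *H3f3a* and *H3f3a* exceeded *Daxx* in all 24. Exon lengths are summed over all annotated transcripts, which lowers the level of a gene with long minor forms: *H3f3a* has 3504 bases of exon, but its transcript described above has 724. *Ubn2* has 21438 bases of exon, but its transcript with the longest coding region has 4243. The order by transcript length was not computed. The gene that names the HIRA complex had the lowest level per kilobase of the 10, with 210 to 527 counts per library.

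Most members moved little across the 24 libraries. The highest library exceeded the lowest by 3.83-fold for *Daxx*, 3.73-fold for *Atrx* and 2.16-fold for *Ubn1*, and by 1.47-fold (*H3f3a*) to 1.8-fold (*Asf1b*) for the other members. Without WT_d20_2 the ratios were 1.97-fold for *Daxx*, 2.17-fold for *Atrx* and 1.48-fold for *Ubn1*, so *Daxx* and *Atrx* still varied most.

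**Figure D1:**
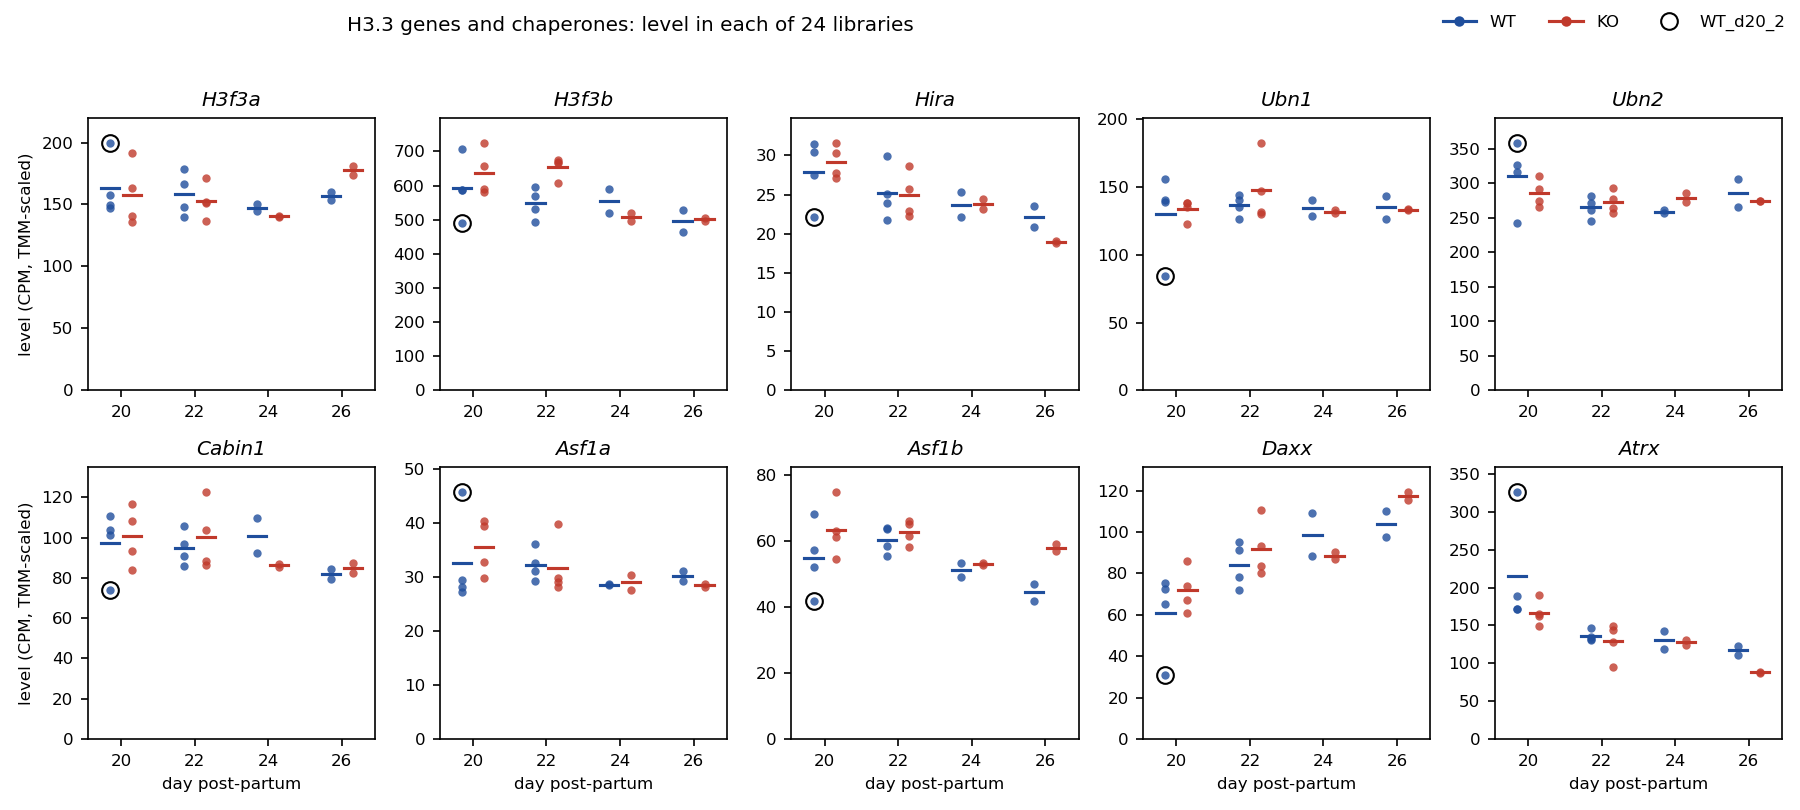
Level of each of the 10 genes in CPM (TMM-scaled, y axis from 0) against day after birth, with 1 point per library, short bars for group means, WT in blue and KO in red. Apart from the circled library WT_d20_2, the genotypes lie close together for most genes, *Daxx* climbs from 60.65 CPM at its lowest outside that library to 119.4 CPM, and *Atrx* declines to 87.59 CPM.

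No member was called changed between KO and WT at any day when all libraries were fitted together. On day 26 that fit did not call *Atad2* either, with a log2 fold change of -1.25 (SE 0.255, adjusted p = 0.0628 in edgeR). A count of 0 members on that day therefore says little. Of all genes tested, 3.34% were called on day 20, 2.51% on day 22, 0.0874% on day 24 and only 0.0466% on day 26. Over the mean of the 4 daily differences 0 of 10 members were called, against 7.08% of all genes, so that a count of 0 among 10 is near the background. Leaving out single libraries moved these all-gene shares, from 0.882% (without WT_d20_3) to 4.55% (without KO_d20_2) on day 20, from 0.35% (without WT_d22_4) to 5% (without KO_d22_1) on day 22, up to 0.137% (without WT_d24_1) on day 24, up to 0.6% (without WT_d20_2) on day 26, and from 1.73% (without WT_d24_2) to 10.1% (without KO_d22_1) over the mean. DESeq2 also called no member, where its shares of all genes in day order were 5.25%, 4.36%, 0.233% and 0.891%, and 10.6% over the mean. At an unadjusted p under 0.05 stood *Atrx* on day 20, *H3f3b* on day 22, *Asf1b* on day 26, none on day 24, and 2 members over the mean (*Asf1b* and *Atrx*). Of all genes, 12.5%, 14.6%, 5.23% and 11.5% did so on the successive days and 23.2% over the mean, so the members' counts were near or below the background. The median absolute log2 fold change over the mean of the days was 0.04 for the members and 0.12 for all genes tested. A p that misses the threshold does not show equal levels, but the intervals bound the difference: the 95% interval of the mean fold change lay within 1.2-fold in either direction for 7 of 10 members and included 1 for 8 of 10. Markers of the cells present also moved with genotype. A stage score, the log2 level of round spermatid markers minus that of pachytene markers, was -3.05 to -1.89 in WT and -2.18 to 0.40 in KO on day 20, and -0.51 to -0.12 in WT and 0.06 to 1.34 in KO on day 22. On day 26 it was 1.93 to 1.94 in WT and 1.67 to 1.73 in KO. The summed level of 7 elongating spermatid markers was 405.5 to 457.2 CPM in WT and 717.3 to 1484 CPM in KO on day 24. On day 26, 7 pachytene markers summed to 4566 to 4890 CPM in WT and 5829 CPM in both KO libraries. Round spermatid markers (865.3 to 918.6 CPM in WT, 1020 to 1091 CPM in KO), elongating spermatid markers (1816 to 2919 and 2960 to 3028 CPM) and Sertoli cell markers (844.3 to 980.7 and 1075 to 1086 CPM) were also without overlap and higher in KO on that day. Leydig (1062 to 1741 CPM in WT, 841 to 967.5 CPM in KO), peritubular (362.5 to 436.1 and 269.7 to 312.5 CPM) and endothelial markers (34.65 to 39.1 and 20.24 to 25.47 CPM) were lower in KO without overlap, and so were spermatogonial (162.4 to 175.1 CPM in WT, 147.6 CPM in both KO libraries) and early meiotic markers (661.4 to 712.2 and 600.3 to 604.6 CPM). Macrophage, blood and epididymis markers overlapped on day 26. Of all genes tested, 4.71%, 8.09%, 44% and 59% were without overlap on the successive days. On day 24 the Leydig markers were higher in KO (480.6 to 674.4 CPM in WT, 860 to 989.4 CPM in KO). Also without overlap on that day, pachytene markers and the 1 tested blood marker were higher in KO, and peritubular and endothelial markers lower. Earlier, pachytene markers on day 20 and elongating spermatid markers on day 22 were higher in KO without overlap, and endothelial markers on day 22 lower. The part of these shifts in the member values was not tested beyond the score. With this score as a covariate 0 members were called in KO, but few of all genes were either, 0.0349%, 0.402%, 0.21% and 0.239% on the successive days and 1.56% over the mean. Over members and days, 40 values ranged from -0.41 (*Atrx*, day 26) to 0.38 (*Asf1b*, day 26) on the log2 scale.

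The H3.3 genes showed no steady difference. *H3f3b* at day 22 read 668.4, 675.0, 607.0 and 666.8 CPM in KO and 569.2, 597.2, 532.4 and 494.6 CPM in WT. Every KO library was above every WT library. The log2 fold change was 0.25 (SE 0.109) and did not pass adjustment over all genes in edgeR (adjusted p = 0.256). At day 24 the order was the other way, with 494.8 and 519.5 CPM in KO and 588.8 and 520.1 CPM in WT (log2 fold change -0.13, SE 0.154). On days 20 and 26 the genotypes overlapped, and the mean fold was 1.04 (0.948 to 1.15). A test of whether the KO effect differed between days did not pass for *H3f3b* (adjusted p = 0.837) or for any other member, with 0.00582% of all genes called (0.817% without KO_d20_2). At an unadjusted p under 0.05 there were 0 of 10 members and 9.06% of all genes, and DESeq2 called 0 members and 1.53% of all genes. *H3f3a* had a mean fold of 1 (0.902 to 1.11). As a share of the counts of both genes, *H3f3b* took 79.6% to 83% in KO and 76.1% to 78.2% in WT at day 22. At day 26 the shares were 73.3% to 74.4% in KO and 74.4% to 77.4% in WT, and the groups overlapped. Over all libraries the share was 78.4% ± 2.85 (SD, n = 24). WT_d20_2 had the lowest share, 71.1%.

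*Hira* codes for the scaffold of the complex that deposits H3.3 at genes. At day 20 it stood at 31.43, 22.11, 30.46 and 27.5 CPM in WT and 27.06, 27.73, 30.25 and 31.56 CPM in KO. At day 22 the WT values were 21.76, 25.09, 29.94 and 23.94 CPM and the KO values 25.72, 22.24, 22.94 and 28.69 CPM. Genotypes overlapped on both days. Day 24 gave 25.32 and 22.08 CPM in WT and 24.39 and 23.15 CPM in KO, again overlapping. At day 26 the KO libraries, at 18.8 and 19.05 CPM, lay below the WT libraries, at 23.52 and 20.81 CPM. The log2 fold change on that day was -0.23 (SE 0.175, adjusted p = 0.642 in edgeR), a fold of 0.853 (0.664 to 1.1), and it was -0.13 without WT_d26_1 and -0.31 without WT_d26_2. Over the mean of the days the fold was 0.969 (0.87 to 1.08), so that the interval ended below a rise of 1.2-fold. *Ubn1* and *Ubn2*, whose products bind the H3.3 dimer, and *Cabin1*, whose product completes the complex, had mean folds of 1.02 (0.9 to 1.15), 0.995 (0.908 to 1.09) and 0.992 (0.881 to 1.12). The signs of the *Ubn1*, *Ubn2* and *Cabin1* means turned when single libraries were left out.

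*Asf1b*, the ASF1 gene associated with proliferating cells, was the member with the highest mean log2 fold change of KO against WT. At day 26 it read 56.81 and 59.09 CPM in KO and 46.98 and 41.76 CPM in WT, without overlap, a log2 fold change of 0.38 (SE 0.171, adjusted p = 0.388). On the other days the genotypes overlapped, with log2 fold changes of 0.21 (day 20), 0.05 (day 22) and 0.05 (day 24). Without WT_d20_2 the day 20 value was 0.08. Their mean was 0.17 (SE 0.074, adjusted p = 0.155), a fold of 1.13 (1.01 to 1.26). Leaving out WT_d20_1 brought this mean past the threshold (0.21, adjusted p = 0.0487), the only library whose removal led to a member call in KO against WT, with 7.51% of all genes called in that fit. *Asf1a*, the paralogue that works with HIRA, had a mean fold of 1.01 (0.881 to 1.15). At day 20 it read 29.47, 45.81, 27.17 and 28.08 CPM in WT and 39.39, 40.41, 29.79 and 32.85 CPM in KO. The groups overlapped only through WT_d20_2, the highest of the 8 libraries. This gave a log2 fold change of 0.13 (SE 0.151, adjusted p = 0.822). It was 0.32 (SE 0.121, adjusted p = 0.165) without that library and 0.51 (SE 0.184, adjusted p = 0.397) with the stage score as a covariate, and no call was made in these fits.

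*Atrx* and *Daxx* form the other route of H3.3 deposition. *Atrx* at day 20 read 172.0, 326.4, 171.1 and 189.1 CPM in WT and 164.5, 190.3, 161.9 and 149.2 CPM in KO, so that the groups overlapped and WT_d20_2 held the highest value. The log2 fold change of -0.37 (SE 0.17, adjusted p = 0.376) became -0.11 (adjusted p = 0.668) without that library. At day 26 *Atrx* was at 87.59 and 89.1 CPM in KO and 110.8 and 123.5 CPM in WT, without overlap (log2 fold change -0.41, SE 0.241, adjusted p = 0.536). Its mean fold over the days was 0.858 (0.738 to 0.997, adjusted p = 0.205). Without WT_d20_2 the mean log2 fold change moved from -0.22 to -0.15. With the stage score as a covariate the mean was -0.14 (SE 0.118, adjusted p = 0.608) and the day 20 value -0.15 (SE 0.237, adjusted p = 0.904). The unadjusted p of the mean was 0.0604 in DESeq2 and 0.0623 in edgeR under relative log expression. *Daxx* had a mean fold of 1.07 (0.904 to 1.26), which was 1.03 without WT_d20_2. Its day 20 log2 fold change of 0.23 was 0.01 without WT_d20_2, where it stood at 31.17 CPM against 65.22 to 75.28 CPM in the other WT libraries of that day.

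Groups that do not overlap were common where they held 2 libraries. On day 20 no member of 10 was without overlap (all genes 4.71%), on day 22 there was 1 (8.09%), on day 24 there were 4 (44%) and on day 26 there were 6 (59%), so that the shares at days 24 and 26 were near the background. The 6 at day 26 were *H3f3a*, *Asf1b* and *Daxx*, higher in KO, and *Hira*, *Asf1a* and *Atrx*, lower in KO. Fitting day 26 alone, on 4 libraries, called *Asf1b* (log2 fold change 0.40, adjusted p = 0.0326) and *Atrx* (-0.40, adjusted p = 0.0249), 2 of 10 members, with 12.8% of all genes called in that fit.

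**Figure D2:**
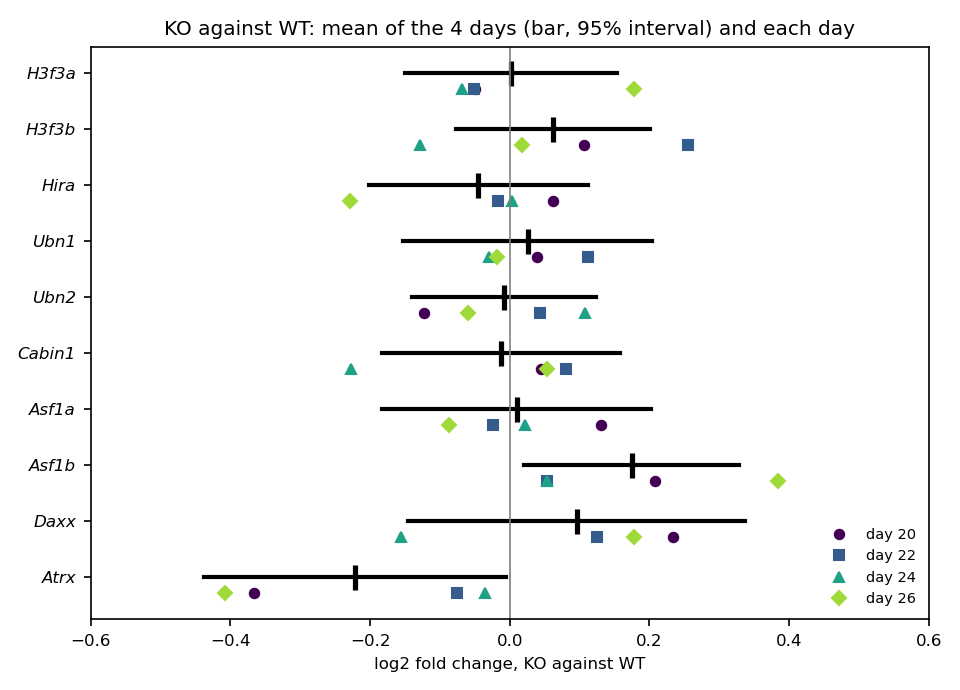
Log2 fold change of KO against WT (x axis) for each gene, with the mean of the 4 days as a vertical tick on its 95% interval and the 4 daily values as coloured symbols under it. The intervals of *Asf1b* (above 0) and *Atrx* (below 0) are the 2 that leave out 0, and neither gene passed adjustment over all genes.

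The wider pathway was read against the same background of 7.08%. Of 22 other genes of H3-H4 supply, ASF1 regulation, H3.3 reading and deposition, all were tested and 0 were called over the mean of the days by edgeR or by DESeq2 (10.6% of all genes), with 2 at an unadjusted p under 0.05 (23.2% of all genes). These were *Cdan1*, whose product binds ASF1 (log2 fold change 0.15, SE 0.0658, adjusted p = 0.162), and *Dek*, which codes for an H3.3 chaperone (-0.14, SE 0.0631, adjusted p = 0.173).

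Between days 20 and 26, members were called changed in both genotypes. Over these days round spermatids and then elongating spermatids accumulate, and whole-testis RNA cannot tell fewer cells of a type from less RNA per cell. The summed level of 7 round spermatid markers went from 168.8 to 251.2 CPM in WT at day 20 to 865.3 to 918.6 CPM at day 26, and in KO from 228.1 to 319.6 CPM to 1020 to 1091 CPM, and all 7 were called higher in both genotypes. All 7 elongating spermatid markers were called higher in both. Of the Sertoli cell markers 3 of 6 in WT and 4 of 6 in KO were called lower, and of the spermatogonial markers 4 of 6 and 3 of 6. Of the peritubular markers 3 of 5 and 4 of 5 were called lower, and of the endothelial markers 1 of 3 and 2 of 3. Of the early meiotic markers 2 of 6 in WT and 4 of 6 in KO were called lower, and 1 was called higher in KO. Leydig markers went the other way, with 5 of 5 called higher in WT (245.7 to 349.2 CPM summed at day 20, 1062 to 1741 CPM at day 26) and 2 of 5 in KO, as did pachytene markers, with 5 of 7 called higher in each genotype. The part of these shifts in the member values was not tested.

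*Atrx*, the remodeller gene on the X chromosome, fell in both genotypes. In WT it went from the day 20 values given above to 110.8 and 123.5 CPM (log2 fold change -0.87, SE 0.216, adjusted p = 0.00271 in edgeR). In KO the change was -0.91 (SE 0.217, adjusted p = 0.00158). Every day 26 library lay below every day 20 library of its genotype. Without WT_d20_2 the WT fall was -0.64 and was still called (adjusted p = 0.000976). *Atrx* was not alone among X-linked genes: of 690 tested genes placed on the X chromosome, 36.5% were called lower at day 26 in WT and 48.8% in KO, where 18.1% and 24.9% of all genes were called lower. Of the 690 genes, 154 were called higher in WT and 130 in KO, where 24.4% and 27.2% of all genes were. The median log2 fold change of the X-linked genes was -0.41 in WT and -0.59 in KO, against -0.04 and -0.07 for all genes. Over all libraries *Atrx* thus fell further than the X-linked median. These shares and medians include WT_d20_2.

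*Daxx* rose over the same days. In WT it went from 75.28, 31.17, 72.66 and 65.22 CPM to 97.33 and 110.3 CPM, and in KO from 60.65, 67.35, 74.1 and 86.01 CPM to 115.5 and 119.4 CPM. Neither genotype showed overlap between days 20 and 26. The log2 fold changes were 0.76 in WT (SE 0.227, adjusted p = 0.0103) and 0.71 in KO (SE 0.227, adjusted p = 0.0131). The WT rise was 0.50 without WT_d20_2 (adjusted p = 0.013). It missed the threshold without WT_d26_2 (adjusted p = 0.099), and the KO rise missed it without KO_d26_1 (0.0615) or KO_d26_2 (0.0911).

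*Atrx* and *Daxx* were the 2 members called in WT (42.5% of all genes were called, and DESeq2 called the same 2, with 42.7% of all genes). In KO 4 members were called (52.2% of all genes), and by DESeq2 3, without *H3f3b* (51.2% of all genes). The additional members were *Hira* and *H3f3b*. *Hira* fell by 0.62 in KO (SE 0.154, adjusted p = 0.00225), from 27.06 to 31.56 CPM at day 20 to 18.8 and 19.05 CPM at day 26. In WT the value was -0.33 (SE 0.152, adjusted p = 0.0849), and without WT_d20_2, whose *Hira* level of 22.11 CPM was the lowest of the day, -0.47 (adjusted p = 0.00959). *H3f3b* fell by 0.35 in KO (SE 0.135, adjusted p = 0.0363), a call lost without any of KO_d20_1 (adjusted p = 0.0939), KO_d20_2 (0.064), KO_d26_1 (0.107) and KO_d26_2 (0.132). Its WT value was -0.26 (adjusted p = 0.127).

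The number of members called moved with single libraries. Without WT_d20_2 the WT count was 6 of 10 (46.4% of all genes), with *Atrx* and *Daxx* joined by *Hira*, *H3f3b* (-0.38, adjusted p = 0.0136), *Asf1b* (-0.46, adjusted p = 0.00461) and *Cabin1* (-0.41, adjusted p = 0.0344). All of these but *Daxx* were lower at day 26. In the same fit 5 members were called in KO (59.1% of all genes), *Asf1a* being added (-0.32, adjusted p = 0.0498). Without WT_d26_2 the WT count was 1, *Atrx* (27% of all genes). Without KO_d26_1 or KO_d26_2 the KO count was 2, *Atrx* and *Hira* (38.4% and 33.4% of all genes). With the replicate number as a block across days 3 members were called in WT (45.2% of all genes) and 5 in KO (53.2%). Read against all genes, the share of members called was lower in WT and KO over all libraries, higher in WT without WT_d20_2 and lower in KO in that fit. *H3f3a*, *Ubn1* and *Ubn2* were called in neither genotype in any of these fits.

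The change with age was not shown to differ between genotypes. The difference of the day 26 to day 20 changes, KO minus WT, passed for 0 of 10 members in edgeR (0% of all genes called, and 1.9% without KO_d20_2). At an unadjusted p under 0.05 there were 0 members and 10.8% of all genes, and DESeq2 called 0 members and 1.25% of all genes. The *Hira* difference was -0.29 (SE 0.213, adjusted p = 0.707), a fold of 0.818 with an interval from 0.601 to 1.11, which covers both no difference and a deeper fall in KO. Without WT_d20_2 it was -0.15 (SE 0.193, adjusted p = 0.703). The WT and KO changes share no libraries.

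**Figure D3:**
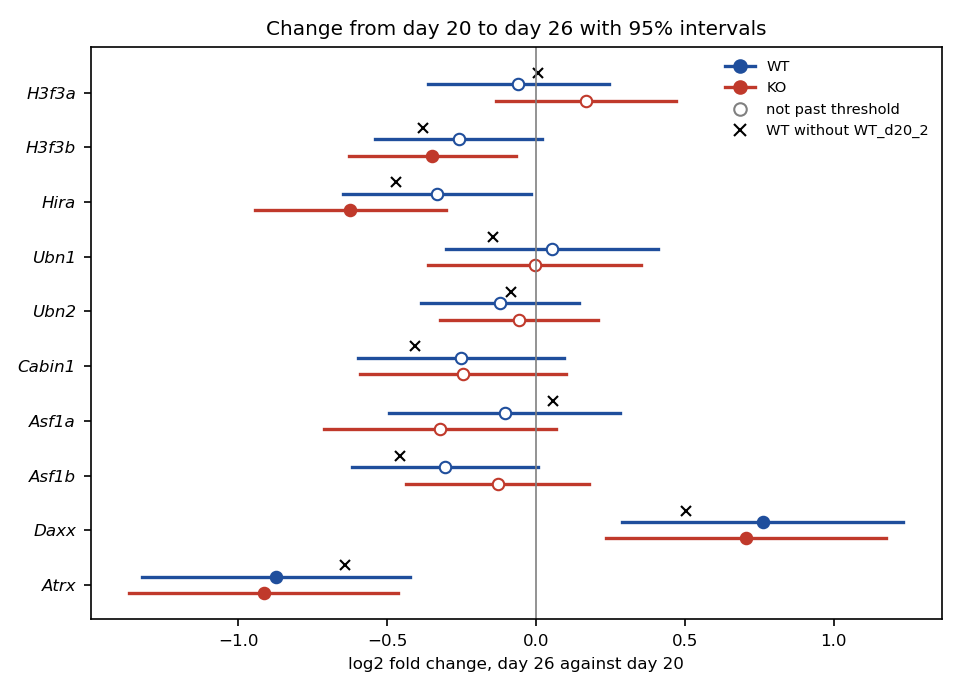
Log2 fold change from day 20 to day 26 (x axis) for each gene in WT (blue) and KO (red), with 95% intervals. Filled circles passed an adjusted p of 0.05 and crosses give the WT value without WT_d20_2. *Atrx* lies below 0 and *Daxx* above 0 in both genotypes, and the crosses of *Hira*, *H3f3b*, *Cabin1* and *Asf1b* lie further below 0 than the WT circles.

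Other genes of the pathway moved with age in both directions. In WT 10 of 22 were called, near the 42.5% of all genes, 4 higher (*Nasp*, *Ipo4*, *Dnajc9* and *Rpa1*) and 6 lower (*Mcm2*, *Tlk1*, *Chd1*, *Chd2*, *Zmynd11* and *Rpa2*), and in KO 16 of 22 (52.2% of all genes), 6 higher and 10 lower. *Nasp*, which codes for the carrier of soluble H3-H4, rose by 0.84 in WT (SE 0.193, adjusted p = 0.0015) and 1.16 in KO (SE 0.192, adjusted p = 5.4e-05). *Ipo4*, the importin gene for H3-H4, rose by 1.14 in WT (SE 0.255) and 1.15 in KO (SE 0.255). *Mcm2*, whose product binds H3-H4 at the replication fork, fell by 0.89 in WT (SE 0.139) and 0.77 in KO (SE 0.138). *Hat1*, the gene of the acetyltransferase for new H4, and *Rbbp7*, that of its partner, both fell by 0.67 in KO (adjusted p = 0.0482 and 0.00509). Their WT values were -0.55 (adjusted p = 0.118) and -0.07 (adjusted p = 0.767), and the difference between genotypes did not pass for either (-0.13, adjusted p = 0.955, and -0.60, adjusted p = 0.377).

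*Daxx* and *Atrx*, partners in 1 complex, ran in opposite directions over the 24 libraries as a set. Between the 2 libraries of WT_d26, of KO_d24 and of KO_d26 both genes moved the same way, and in WT_d24 they moved opposite ways. *Daxx* took 8.72% to 30.4% of the counts of both genes in WT at day 20 (25.6% at least without WT_d20_2) and 46.8% to 47.2% in WT at day 26. In KO the share was 26.1% to 36.6% at day 20 and 56.9% to 57.3% at day 26. Counts of 2 genes of unlike length are compared here only as a share that moves, not as levels. The Pearson correlation of their log2 CPM over the 24 libraries was -0.941, and -0.901 without WT_d20_2. This is a description, since the libraries share days and genotypes. Of the other members, *Hira* was most like *Cabin1* (0.697) and *H3f3b* most like *Asf1b* (0.746), and both values were near the same without WT_d20_2 (0.696 and 0.733). The closest members of the others were less like them without that library, from 0.683 to 0.24 for *Ubn1* and *Daxx*, 0.509 to 0.221 for *Ubn2* and *Atrx*, 0.584 to 0.345 for *Asf1a* and *Atrx*, and 0.547 to 0.38 for *H3f3a* and *Asf1a*.

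**Figure D4:**
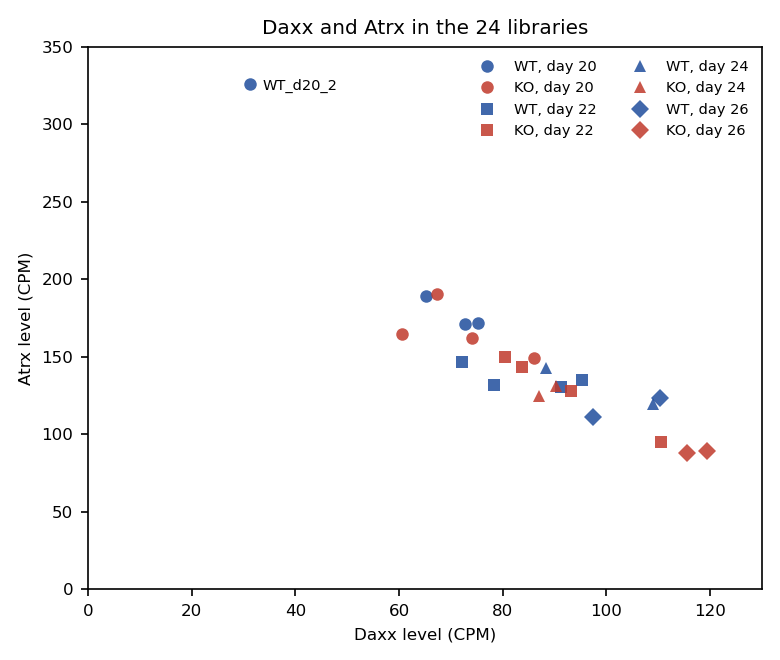
*Atrx* level against *Daxx* level in CPM, 1 point per library, with colour for genotype and shape for day. Points run from high *Atrx* and low *Daxx* at day 20 to low *Atrx* and high *Daxx* at day 26, and WT_d20_2 (31.17 CPM of *Daxx* and 326.4 CPM of *Atrx*) lies far beyond the others.

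Across all genes tested, the gene whose log2 CPM most resembled each member over the 24 libraries was found. For *Daxx* it was *Agbl5* (Pearson r 0.982, and 0.959 without WT_d20_2) and for *Atrx* it was *Hook3* (0.972 and 0.952). For *Hira* it was *Atp8b2* (0.938 and 0.936), for *Ubn1* *Thrap3* (0.945 and 0.853), for *Ubn2* *Gm20199* (0.866 and 0.794) and for *Cabin1* *Nol6* (0.881 and 0.865). *Asf1a* was most like *Atp6v1h* (0.919 and 0.885), *Asf1b* like *Mrpl4* (0.867 and 0.84), *H3f3a* like *Dynll1* (0.889 and 0.855) and *H3f3b* like *Tsnax* (0.839 and 0.838). Without WT_d20_2 the closest gene was another one for 6 members: *Tdrkh* for *H3f3b* (0.911), *Bub3* for *Asf1b* (0.932), *Setdb1* for *Ubn1* (0.887), *Spata2* for *Cabin1* (0.892), *Fam136a* for *Asf1a* (0.886) and *Rnf10* for *Daxx* (0.967). No closest gene was another member.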

How the data were processed

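Total RNA of testis, depleted of ribosomal RNA, had been turned into 24 strand-specific libraries and sequenced in pairs by the authors, who aligned the reads to mm10 with STAR 2.7.11b and counted pairs within exons with HTSeq, using strand and discarding pairs with several alignments. The deposited values were raw counts per gene symbol, not normalized and not pooled, and 5 tally lines were left out of sizes and tests. The submitters' processing notes also name DESeq2 1.22.2. Groups came from the sample labels.

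Library sizes were scaled by TMM (trimmed mean of M values), and edgeR 4.0.16 (limma 3.58.1, R 4.3.3) gave a quasi-likelihood test per gene. Genes were kept by filterByExpr with a minimum count of 10, which left 17170 of 24456 genes. The robust fit had 1 coefficient for each of the 8 groups over all 24 libraries, so that groups of 2 libraries shared the estimate of the spread. Two-sided p-values were adjusted (Benjamini-Hochberg) over the 17170 genes, and an adjusted p under 0.05 made a call. Intervals are 95% intervals of the fitted fold change. The fit was tested on simulated counts first. CPM are counts scaled to a common library size by TMM. Levels per kilobase use the summed exon length of a gene in GENCODE M21, which also gave positions and transcript sequences, and the log2 CPM used for correlations had a prior count of 2.

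The genes named are all 10 members, *Atad2*, the gene most correlated with each member, and 22 other genes of H3-H4 supply and H3.3 deposition, of which the 2 with the lowest p-value were to be named for the KO comparison if none passed. Members, lists and tests were chosen with earlier results of these data known. The stage score was the mean centred log2 CPM of the round spermatid markers minus that of the pachytene markers. Alternatives were DESeq2 1.42.0, size factors by relative log expression, no filter on low counts, each day or each genotype fitted alone, the stage score as a covariate, a replicate block, and each library left out in turn. The methods call the replicates biological and do not say whether each was 1 male. They give fewer day 20 replicates than the labels, and all labelled libraries were used. Same-numbered libraries of the 2 genotypes were not treated as pairs, since nothing in the labels says that they are.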

Additional observations from a re-analysis of the deposited data

Results flagged for a closer look

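In 4 of 40 groups of 4 libraries, 1 library lay far from the other 3 relative to the range of its group, where chance gives about 1 in 20. *Atrx* in WT_d20_2 stood at 326.4 CPM, where the other WT libraries of day 20 lay from 171.1 to 189.1 CPM, and *Asf1a* in the same library stood at 45.81 CPM, where the others lay from 27.17 to 29.47 CPM. *Asf1a* in KO_d22_1 was at 39.82 CPM (others 28.08 to 29.9 CPM). *H3f3b* in KO_d22_3 was at 607 CPM (others 666.8 to 675 CPM), still above every WT library of that day.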

How the results depend on the processing

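Counts of members called in KO stayed at 0 at each day and over the mean in DESeq2, under relative log expression, without a filter, with the stage score and with the replicate block within days. The exception was day 26 fitted alone, with 2 members. Leaving out libraries gave 0 to 1 members over the mean of the days, 1 to 6 from day 20 to day 26 in WT and 2 to 5 in KO. With a replicate block across days 3 members were called in WT (45.2% of all genes), *Asf1b* being added (-0.36, adjusted p = 0.0474). In KO that fit called 5 (53.2% of all genes), *Asf1a* being added (-0.45, adjusted p = 0.0331). The deviations of same-numbered libraries of the 2 genotypes from their group means correlated from -0.459 to -0.0254 on day 22. On the other days they correlated from 0.0705 to 0.416, where groups of 2 libraries give 1 value per day. These values cannot settle whether the numbers mark pairs. The numbers were not read as pairs because the labels do not say that they are.

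Of 50 named log2 fold changes, 18 changed sign in some fit. In DESeq2, under relative log expression and without a filter, in that order, *Hira* at day 22 became 0.0039, 0.0052 and 0.0355 (0.0004 with the day fitted alone), *Ubn1* from day 20 to day 26 in KO 0.0830, 0.0830 and 0.0197 (0.0657 with the block), the mean of *Ubn2* 0.0083, 0.0081 and 0.0129 (0.0233 with the stage score) and the mean of *Cabin1* 0.0047, 0.0050 and 0.0090. *Ubn2* from day 20 to day 26 in KO became 0.0320 in DESeq2 and under relative log expression. With the stage score *Daxx* at day 20 became -0.0086 and *Atrx* at day 22 0.0450. Leaving out libraries gave ranges that crossed 0 for the means of *H3f3a* (-0.0242 to 0.0332), *Ubn1* (-0.0089 to 0.0602), *Ubn2* (-0.0251 to 0.0197), *Cabin1* (-0.0401 to 0.0216) and *Asf1a* (-0.0219 to 0.0651). They also did for *Hira* at days 20 (-0.0471 to 0.1219), 22 (-0.0920 to 0.1004) and 24 (-0.0755 to 0.1079), *H3f3b* at day 26 (-0.0637 to 0.1149), *Daxx* at day 24 (-0.2831 to 0.0058) and *Atrx* at days 22 (-0.1543 to 0.0469) and 24 (-0.1584 to 0.1154). From day 20 to day 26 they did for *H3f3a* in WT (-0.1326 to 0.0062), *Asf1a* in WT (-0.2149 to 0.0572), *Ubn1* in WT (-0.1459 to 0.1313) and *Ubn1* in KO (-0.0430 to 0.0110). The cause was not tested. The *H3f3b* fall in KO also missed the threshold in DESeq2 (-0.26, adjusted p = 0.0728), under relative log expression (0.112) and without a filter (0.0699). Days 24 and 26 hold 2 libraries per genotype, so a lone remaining library was assumed to vary like the other groups.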
